A study of Rattus norvegicus with 32 samples.

Results

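Glutathione transferases of the rat mammary gland were followed through all probe sets of the array whose gene symbol was Gsta1, Gsta3, Gsta4, Gstm1, Gstm2, Gstp1, Gstt1, Gstt2 or Mgst1. All 9 genes were on the array, of 4737 genes named there, with 19 probe sets of 8799. The series measured RNA of normal mammary gland on Affymetrix rat arrays, 1 array per sample. The 30 single-sample arrays formed 6 groups of 5. They were the F1(CopXF344) hybrid, here called F1, its parents Cop and F344, and the further inbred strains ACI, BUF/N and WF. Pooled RNA of Cop and of F344 had 1 array each. The labels name no treatment and give no age, sex, oestrous stage or batch. Nothing states that a group's samples were separate animals, so the p-values refer to sample-to-sample spread alone, which may be technical. Per its title the series concerns how rat strains differ in mammary carcinogenesis. As background, Cop rats resist mammary carcinogens, a trait inherited dominantly, while F344, BUF/N and WF rats are susceptible to them.

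Glutathione transferases join the tripeptide glutathione to electrophiles, among them reactive metabolites of carcinogens and products of lipid peroxidation. The soluble enzymes are dimers and fall into classes by sequence, of which alpha (Gsta), mu (Gstm), pi (Gstp) and theta (Gstt) are covered here. Mgst1 is a membrane enzyme of the endoplasmic reticulum and outer mitochondrial membrane from an unrelated family. Several of these genes are induced in liver by the transcription factor Nrf2, which binds the antioxidant response element as a dimer with a small Maf protein.

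The core of that element, TGACNNNGC, was searched on both strands of the promoter windows of RefSeq (build GRCr8), which hold 250 bases before and 50 bases after the annotated start. Windows were found for 7 of the 9 genes, 8 windows in all, and 3 of the 8 held the motif, 1 each of Gsta1, Gsta3 and Gstp1, against 12.1% of the 33469 windows of the table. It began 17 bases before the annotated start in Gsta3, 61 bases before it in Gstp1 and at position 31 after it in Gsta1. The other window of Gsta3 did not hold it. Just before the motif, the windows of Gsta1 and Gsta3 that held it have the same run of letters. These matches are therefore not independent of each other, and their positions depend on where each start is annotated. Whether the 3 windows exceed the share of the table was not tested. The 3 windows are shown for the motif, and that of Gstm1, which was high in Cop, as one with no match. Capitals mark the motif. A match is a description of these letters, not a binding site, and no match says only that the letters are not in the window.
Gsta1, chr9:31216483-31216782, minus strand: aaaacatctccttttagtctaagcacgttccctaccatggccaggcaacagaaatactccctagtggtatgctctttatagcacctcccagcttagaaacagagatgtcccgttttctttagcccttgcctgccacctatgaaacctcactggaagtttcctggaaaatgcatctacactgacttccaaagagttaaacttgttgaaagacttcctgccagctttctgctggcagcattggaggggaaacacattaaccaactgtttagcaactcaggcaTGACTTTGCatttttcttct
Gsta3, chr9:31154739-31155038, plus strand: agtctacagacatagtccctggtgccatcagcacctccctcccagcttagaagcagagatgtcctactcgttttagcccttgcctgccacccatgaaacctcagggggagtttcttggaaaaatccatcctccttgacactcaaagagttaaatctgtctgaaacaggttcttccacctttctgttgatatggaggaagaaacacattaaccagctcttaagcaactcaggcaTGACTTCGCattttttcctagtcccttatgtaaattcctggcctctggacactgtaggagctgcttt
Gstp1, chr1:210769656-210769955, minus strand: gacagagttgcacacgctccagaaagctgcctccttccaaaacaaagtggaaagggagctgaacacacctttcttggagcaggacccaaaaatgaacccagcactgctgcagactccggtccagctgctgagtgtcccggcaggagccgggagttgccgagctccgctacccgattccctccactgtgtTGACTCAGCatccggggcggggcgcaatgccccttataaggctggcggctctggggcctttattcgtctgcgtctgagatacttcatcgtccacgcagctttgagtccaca
Gstm1, chr2:198343334-198343633, minus strand: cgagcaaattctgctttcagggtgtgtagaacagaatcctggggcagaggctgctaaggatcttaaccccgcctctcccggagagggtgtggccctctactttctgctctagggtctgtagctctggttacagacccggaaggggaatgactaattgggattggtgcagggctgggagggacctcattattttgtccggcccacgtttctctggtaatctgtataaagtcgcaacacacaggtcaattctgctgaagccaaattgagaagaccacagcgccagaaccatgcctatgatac

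Values are linear Affymetrix signals, in arbitrary units, as the authors deposited them. A signal was set to at least 18.3, the 25th percentile of all values, before the log2 transformation. A probe set entered the tests with 5 or more of the 30 arrays over 78.4, the median of all values, and 5039 did so. Of the 19 probe sets 17 were tested, at least 1 for each gene. The other 2, rc_AA945082_at and S72506_s_at, both of Gsta3, had signals between 0.3 and 10 on all 30 arrays, below that floor, and give no level. Most of the 19 probe sets can be hit by related transcripts. In the Affymetrix naming the ending _s_at marks probes shared between transcripts (10 probe sets), _f_at those of a sequence family (3, all of Gsta1) and _g_at those of a group of sequences (1). Signals of closely related genes can therefore not be fully told apart, and levels are compared only between groups within a probe set.

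F1 3 (65.8) and F1 2 (67.1) had the lowest array medians, and ACI 2 (102.1) and ACI 5 (101.8) the highest. The other arrays had medians between 68.9 and 86.8. Arrays correlated within Cop, F344, BUF/N and WF with r = 0.886 to 0.973 over the tested probe sets. The lowest of these was WF 1 with WF 4. WF 1 had a mean r of 0.905 with its own group, near ACI 2 (0.916) and ACI 5 (0.902), and was kept. F1 2 and F1 3 stood apart, at r = 0.846 to 0.893 with the other F1 arrays and 0.959 with each other, and so did ACI 2 and ACI 5, at 0.876 to 0.913 with the other ACI arrays and 0.951 with each other. Without these 4 arrays several differences described below lost or gained a call, also between other groups, since all groups share the estimate of the spread, and those values are given beside them.

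By group mean, Gsta1 was lowest in F1, Gstm1 was highest in Cop, Gsta4 was highest in WF on X62660mRNA_g_at, and both probe sets of Gstp1 were lowest in ACI. Gstt2 had the widest spread of group means, 11.2-fold on rc_AI138143_at. The F test of limma over the 6 groups (Benjamini-Hochberg adjusted p under 0.05) called 11 of the 17 probe sets, from 6 genes, or 64.7%, against 51.8% of all tested probe sets. Both probe sets of Gstm2, X78848cds_f_at of Gsta1, S82820mRNA_s_at of Gsta3, X62660mRNA_at of Gsta4 and J03752_at of Mgst1 missed the threshold, with adjusted p between 0.0511 and 0.346. Over the 15 pairs of groups, 73 of 255 comparisons passed (28.6%), against 15.8% over all tested probe sets.

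Of the 17 probe sets, F1 minus Cop passed in 9 (background 26.3% of all tested probe sets), F1 minus F344 in 5 (background 31.7%), F1 minus ACI in 8 (background 29.2%), F1 minus BUF/N in 6 (background 17.3%) and F1 minus WF in 6 (background 15.2%). Among the inbred strains, Cop minus ACI passed in 4 (background 7.6%), Cop minus BUF/N in 5 (background 23.3%), Cop minus WF in 7 (background 12.8%), F344 minus ACI in 1 (background 12.3%), F344 minus BUF/N in 4 (background 23.8%) and F344 minus WF in 2 (background 11.3%). ACI minus BUF/N passed in 4 (background 13.7%), ACI minus WF in 4 (background 7.18%) and BUF/N minus WF in 3 (background 2.22%). Whether these counts differ from each other was not tested.

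**Figure D1:**
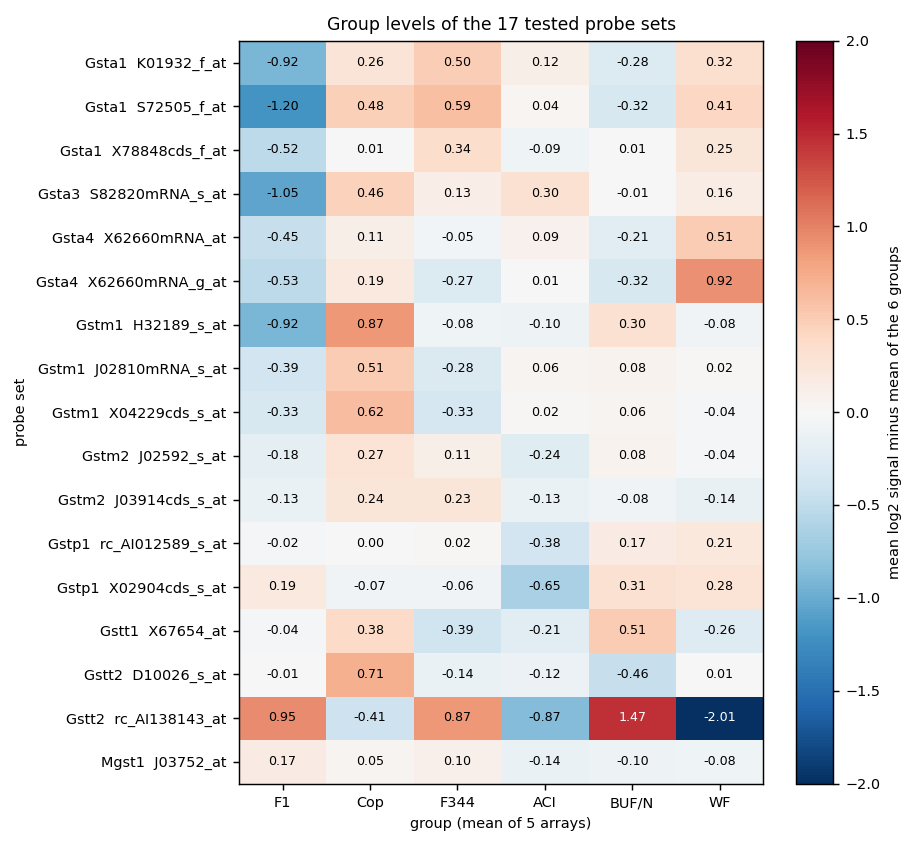
Mean log2 signal of each group (columns, 5 arrays each) minus the mean of the 6 groups, for the 17 tested probe sets (rows), with red above and blue below that mean. Gsta1 is blue in F1 (-1.20 on S72505_f_at), Gstm1 red in Cop (0.87 on H32189_s_at), and the 2 probe sets of Gstt2 differ in which groups are high.

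Gsta1 encodes an alpha class subunit that acts on a wide range of electrophiles and on organic peroxides. On S72505_f_at the signals of F1 1 to F1 5 were 198, 401, 499, 219 and 556, against 1346, 1090.5, 1078, 1008 and 991 in Cop and 1443, 1279.6, 1111, 783 and 1481 in F344. In the other strains they were 869, 632, 709.6, 992 and 908 in ACI, 553, 720.5, 579, 592 and 722 in BUF/N and 1011, 1042, 1102, 960.3 and 1122 in WF. Every F1 array lay below every array of Cop, F344, ACI and WF, and only F1 5 reached the range of BUF/N. F1 averaged 374.4 ± 161.7 (SD, n = 5), against 1103 ± 142.7 in Cop and 1220 ± 284.6 in F344 (SD, n = 5 each). The log2 difference was -1.67 (SE 0.217, limma adjusted p = 4.59e-06) against Cop and -1.79 (adjusted p = 1.77e-06) against F344, or 3.19-fold and 3.46-fold lower. F1 was also lower than ACI (-1.24, adjusted p = 0.00017), BUF/N (-0.87, adjusted p = 0.00684) and WF (-1.61, adjusted p = 1.25e-05). Among the inbred strains BUF/N was the lowest, with log2 differences of 0.80 for Cop minus BUF/N (adjusted p = 0.00795) and 0.92 for F344 minus BUF/N (adjusted p = 0.00342). The strains in descending order of the mean were F344, Cop, WF, ACI and BUF/N, and Cop did not pass against F344 (adjusted p = 0.894).

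K01932_f_at, another probe set of Gsta1, gave the same order at its low end. Its signals were 232, 294, 459, 286 and 528 in F1, against 1069, 726, 784, 554 and 837 in Cop and 861, 986, 887, 690.4 and 1248 in F344. ACI had 663, 574, 802, 892 and 639, BUF/N 506, 557, 524, 481 and 615, and WF 729, 899, 550.1, 957 and 1019.7. The F1 arrays lay below all arrays of Cop, F344, ACI and WF, and F1 5 overlapped BUF/N. The difference was -1.18 (SE 0.208, adjusted p = 0.000143) against Cop and -1.42 (adjusted p = 1.57e-05) against F344, and F344 exceeded BUF/N by 0.78 (adjusted p = 0.00882). On the third probe set, X78848cds_f_at, F1 ran from 272 to 906 and overlapped every group, against 553 to 701 in Cop and 657 to 990.5 in F344. There F1 was lower than F344 by 0.86 on the log2 scale (adjusted p = 0.00974), a difference of -0.44 without F1 2, F1 3, ACI 2 and ACI 5 (adjusted p = 0.178). All 3 probe sets had the same sign in 13 of the 15 pairs of groups, and at least 2 passed together in 6 of the 7 pairs with a call.

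**Figure D2:**
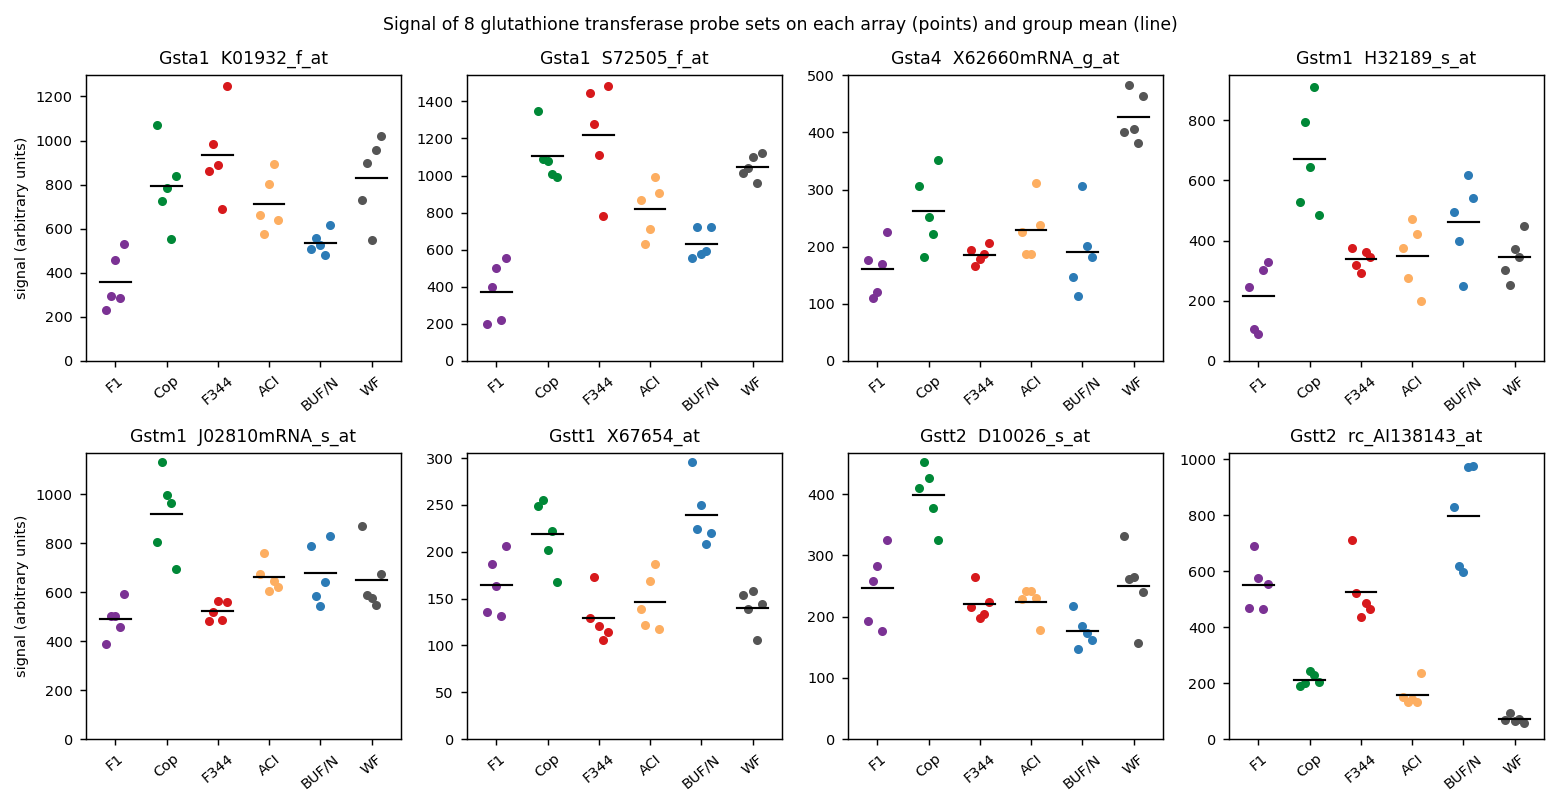
Signal (vertical axes, linear from 0, arbitrary units) on each of the 5 arrays of the 6 groups, for the 8 probe sets with the smallest adjusted p in the F test; points are arrays and lines are group means. The F1 arrays of Gsta1 S72505_f_at lie between 198 and 556, and the 5 WF arrays of Gstt2 rc_AI138143_at between 57.3 and 94.3, below all others.

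Gsta3, another alpha class gene, had 1 tested probe set, S82820mRNA_s_at, with low signals. They were 52.2, 12.5, 19.1, 97.8 and 97.3 in F1, 119, 158, 142, 189.7 and 63.6 in Cop and 116, 108, 76.3, 118 and 92.2 in F344. F1 2, below the floor, and F1 3 were the lowest of all 30 arrays. F1 1 (52.2) also lay below every array of both parents, while F1 4 and F1 5 lay within the ranges of both. F1 was lower than Cop (-1.51, SE 0.44, adjusted p = 0.0118) and F344 (-1.18, adjusted p = 0.0404), and the differences were -0.68 (adjusted p = 0.272) and -0.35 (adjusted p = 0.597) without the 4 arrays that stood apart. The call against Cop ended without F1 2 or without F1 3 (adjusted p = 0.0516 each). Against F344 it ended without F1 2 (0.154), F1 3 (0.15), F344 1 (0.0724), F344 2 (0.0683), F344 4 (0.0748) or F344 5 (0.0607), these being adjusted p. With the 40th percentile as floor it was -0.64 and missed the threshold (adjusted p = 0.141), as it did with 50 added instead of a floor (-0.61, 0.0674), with array weights (-0.73, 0.11), with no filter (0.0845) and with quantile normalization (0.0523). The difference from Cop was -0.97 with the higher floor and -0.85 with 50 added, and passed in both. F1 minus ACI was -1.35 (adjusted p = 0.022), and -0.43 without the 4 arrays (adjusted p = 0.623). That call also ended without F1 2 (0.089) or F1 3 (0.087). It ended too with the higher floor (0.0646), quantile normalization (0.068), centring on the median (0.0529) or array weights (0.179).

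Gsta4 encodes the alpha class enzyme that prefers 4-hydroxynonenal, a product of lipid peroxidation. On X62660mRNA_g_at WF had 401, 483, 405, 382 and 463, against 178, 111, 121, 170.3 and 226 in F1, 306, 182, 252, 223 and 352 in Cop and 194, 166, 179, 187 and 206 in F344. ACI had 226, 187, 187, 312 and 237 and BUF/N 147, 114, 307, 200.5 and 182. All 5 WF arrays lay above the other 25. With the first-named group minus WF, the log2 difference was -1.45 for F1 (adjusted p = 4.36e-05), -1.19 for F344 (adjusted p = 0.000434), -0.91 for ACI (adjusted p = 0.00809) and -1.24 for BUF/N (adjusted p = 0.00042), each with SE 0.217. For Cop it was -0.73 (adjusted p = 0.0228), a call that ended without Cop 2 (0.0807), Cop 4 (0.0588), WF 2 (0.0554) or WF 5 (0.0509), and with centring on the median (-0.62, 0.0676). F1 minus Cop also passed there (-0.72, adjusted p = 0.0147). It was -0.43 without the 4 arrays that stood apart (adjusted p = 0.188) and missed the threshold without F1 2 (0.0549). On X62660mRNA_at, which was made from the same source sequence, WF ran from 179 to 246 and only F1 minus WF passed (-0.97, adjusted p = 0.0291), and both probe sets had the same sign in all 15 pairs. That call ended without F1 2 (0.12), F1 3 (0.0857), WF 1 (0.0586) or WF 5 (0.0679), and the difference was -0.55 without the 4 arrays that stood apart (adjusted p = 0.267). It also ended with no filter (0.06), quantile normalization (0.102), centring on the median (0.0881) or array weights (0.0694).

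Gstm1 encodes a mu class subunit, a class known for its action on epoxides and on metabolites of polycyclic hydrocarbons. On J02810mRNA_s_at Cop had 804, 1132, 996, 966 and 694, against 483, 518, 564, 484 and 560.3 in F344. F1 had 389.9, 504, 504, 456 and 591, ACI 673, 759, 604, 647 and 623, BUF/N 789.9, 583, 545, 643 and 828 and WF 869, 589, 574, 549.6 and 674. Every Cop array lay above every F1 and F344 array, while Cop 1 or Cop 5 lay within the ranges of ACI, BUF/N and WF. The log2 difference of Cop minus F344 was 0.80 (SE 0.149, adjusted p = 0.00102), and that of F1 minus Cop was -0.90 (adjusted p = 7.49e-05). On X04229cds_s_at Cop ran from 658 to 905, against 361 to 425 in F344, and F1 ran from 359.7 to 491. There the log2 difference was 0.95 for Cop minus F344 (SE 0.183, adjusted p = 0.00144) and -0.95 for F1 minus Cop (adjusted p = 0.000392). Cop minus ACI was 0.61 (adjusted p = 0.0382), and 0.38 without the 4 arrays that stood apart (adjusted p = 0.181). That call also ended without Cop 1 (0.106), Cop 2 (0.0847), Cop 3 (0.051), Cop 4 (0.0639), ACI 2 (0.062) or ACI 5 (0.146), and with no filter (0.0537).

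The third probe set of Gstm1, H32189_s_at, showed the widest difference between F1 and Cop. Its signals were 245, 108, 91.2, 302 and 328 in F1, 529.6, 793, 645, 911 and 485 in Cop and 374, 318, 292, 362 and 347 in F344. ACI had 377, 274, 473, 422 and 201, BUF/N 495, 399, 249, 619.5 and 541 and WF 302, 253, 372, 347 and 449. All Cop arrays lay above all F1, F344, ACI and WF arrays, and F1 2 and F1 3 were the lowest of the 30. F1 minus Cop was -1.80 (SE 0.299, adjusted p = 8.06e-05), and -1.18 (adjusted p = 0.000842) without the 4 arrays. Cop minus F344 was 0.96 and missed the threshold (adjusted p = 0.076), but passed it without the 4 arrays (adjusted p = 0.00365). Against ACI and WF, Cop was higher by 0.97 (adjusted p = 0.0436) and 0.95 (adjusted p = 0.0324), and neither call held throughout. That against ACI ended without any one of Cop 1, Cop 2, Cop 3, Cop 4, F344 1, F344 2, F344 4, F344 5, ACI 1, ACI 2 or ACI 5 (adjusted p = 0.0502 to 0.136), and that against WF without Cop 2, Cop 3, Cop 4, WF 1, WF 2 or WF 4 (adjusted p = 0.0501 to 0.0949). With no filter they had adjusted p = 0.0779 and 0.0696, and without the 4 arrays Cop minus ACI was 0.63 (adjusted p = 0.0924). In F1 against its other parent, F344, J02810mRNA_s_at differed by -0.10 (adjusted p = 0.617) and X04229cds_s_at by 0.00 (adjusted p = 0.998). On H32189_s_at that difference was -0.84 (adjusted p = 0.0331), and -0.22 without the 4 arrays (adjusted p = 0.531). It also missed the threshold without F1 2 (0.126), F1 3 (0.145), F344 1 (0.0618), F344 4 (0.06) or F344 5 (0.0603), and with no filter (0.0675), quantile normalization (0.0516), centring on the median (0.0514) or array weights (0.0991). Cop minus BUF/N was 0.44 on J02810mRNA_s_at (adjusted p = 0.0332) and 0.57 on X04229cds_s_at (adjusted p = 0.0245). It was 0.57 on H32189_s_at and missed the threshold (adjusted p = 0.164), but passed it without the 4 arrays (0.0315). Cop minus WF was 0.50 on J02810mRNA_s_at (adjusted p = 0.0253) and 0.66 on X04229cds_s_at (adjusted p = 0.0147). Each of these calls with all arrays ended under some alternative. At least 2 of the 3 probe sets passed together in 7 of the 8 pairs of groups with a call, and none passed in opposite directions.

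Gstm2, the other mu class gene, passed in 0 of the 15 pairs by limma on either probe set, and in 1 pair on J02592_s_at and 0 on J03914cds_s_at at an unadjusted p under 0.05. Signals ran from 429 to 1224 on J02592_s_at and from 418 to 1095 on J03914cds_s_at, and the highest group mean was 1.38 and 1.30 times the lowest. Cop minus F344 was 0.15 (SE 0.237, adjusted p = 0.863) and 0.01 (SE 0.189, adjusted p = 0.995).

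Gstp1 encodes the pi class enzyme, known in rat liver as a marker of early neoplastic foci. On X02904cds_s_at ACI had 864, 456, 759.7, 930.3 and 305, against 1399, 1149, 1029.7, 1163 and 1208 in BUF/N and 1702, 1219, 902, 995 and 1116 in WF. All ACI arrays lay below all BUF/N arrays, and ACI 2 and ACI 5 were the lowest of the 30. ACI minus BUF/N was -0.96 (SE 0.213, adjusted p = 0.00255), ACI minus WF was -0.92 (adjusted p = 0.00639) and F1 minus ACI was 0.84 (adjusted p = 0.00441). These were -0.48 (adjusted p = 0.0593), -0.45 (adjusted p = 0.127) and 0.34 (adjusted p = 0.258) without F1 2, F1 3, ACI 2 and ACI 5, and with array weights those of ACI minus WF and F1 minus ACI were -0.52 (adjusted p = 0.057) and 0.40 (adjusted p = 0.098). On rc_AI012589_s_at ACI averaged 1759 ± 428.9, against 2518 ± 345.1 in BUF/N and 2583 ± 276.3 in WF (SD, n = 5 each), with differences of -0.55 (adjusted p = 0.0232) and -0.59 (adjusted p = 0.0232), which fell to -0.29 (adjusted p = 0.228) and -0.33 (adjusted p = 0.261) without the 4 arrays. Leaving out ACI 5 alone gave adjusted p = 0.103 and 0.104 for these 2 calls, and ACI 2 alone 0.0591 and 0.0641. The call against BUF/N also ended without BUF/N 1 (0.0641) or BUF/N 4 (0.0513), and that against WF without WF 1 (0.0674) or WF 2 (0.0508) and with array weights (0.0909). Cop minus F344 was -0.01 (adjusted p = 0.988) on rc_AI012589_s_at and 0.00 (adjusted p = 0.998) on X02904cds_s_at.

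Gstt1 and Gstt2 encode theta class enzymes, known for their action on halogenated alkanes and on sulfate esters of arylmethanols. On X67654_at of Gstt1 the signals were 136, 187, 163, 131 and 206 in F1, 249, 256, 202, 222 and 167 in Cop and 129, 174, 121, 106 and 115 in F344. ACI had 139, 122, 169, 187 and 117, BUF/N 296, 224, 249.8, 208 and 220.5, and WF 154, 139, 159, 106 and 144. BUF/N and Cop were the high groups, and all BUF/N arrays lay above all arrays of F1, F344, ACI and WF. Cop minus F344 was 0.77 (SE 0.172, adjusted p = 0.00688), with Cop 5 below F344 2, and Cop minus WF was 0.64 (adjusted p = 0.0121). F344 minus BUF/N was -0.91 (adjusted p = 0.000526), ACI minus BUF/N -0.72 (adjusted p = 0.00478) and BUF/N minus WF 0.77 (adjusted p = 0.008). That of ACI was -0.54 without the 4 arrays (adjusted p = 0.0593). The means of the low groups, 164.5 in F1, 146.7 in ACI, 140.4 in WF and 128.9 in F344, did not differ past the threshold in any pair.

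Gstt2 had the largest difference of the 17 probe sets and also probe sets that disagreed. On rc_AI138143_at the signals were 467, 689, 577, 463 and 555 in F1, against 190.2, 200.1, 242, 229.5 and 203 in Cop and 711, 523, 438, 487 and 464 in F344. ACI had 151, 132, 144, 132 and 235, BUF/N 829.7, 617, 597, 971 and 977 and WF 69.4, 94.3, 63.6, 70.9 and 57.3. By group mean BUF/N, F1 and F344 were high, Cop and ACI lower and WF lowest, and the 5 WF arrays were the lowest of the 30. BUF/N averaged 798.4 ± 184.5, against 71.1 ± 14.03 in WF (SD, n = 5 each), a log2 difference of 3.48 (SE 0.18, adjusted p = 6.05e-15). Of the 15 pairs 13 passed, among them Cop minus F344 at -1.28 (adjusted p = 1.3e-05), F344 minus WF at 2.88 (adjusted p = 4.89e-13), Cop minus WF at 1.60 (adjusted p = 4.13e-07) and ACI minus WF at 1.14 (adjusted p = 6.71e-05). Neighbours in the order that did not pass were F1 and F344 (0.07, adjusted p = 0.774) and Cop and ACI (0.45, adjusted p = 0.118). Without the 4 arrays Cop minus ACI was 0.58 and passed (adjusted p = 0.0476). F1 minus BUF/N passed at -0.52 (adjusted p = 0.0434) and missed it without F1 1 (0.0938), F1 3 (0.064), F1 4 (0.0852), BUF/N 1 (0.0857), BUF/N 4 (0.118) or BUF/N 5 (0.112), and F344 minus BUF/N (-0.60, adjusted p = 0.0181) missed it without F344 3 (0.0539), BUF/N 4 (0.0545) or BUF/N 5 (0.0509). With centring on the median these were -0.30 (adjusted p = 0.226) and -0.44 (adjusted p = 0.0769), and F1 minus BUF/N also missed it with no filter (0.0582), quantile normalization (0.0502) or the replicate number as a block (0.061).

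The other probe set of Gstt2, D10026_s_at, set Cop apart on the high side. Cop had 411, 452, 426, 377 and 325, against 192, 258, 283, 176 and 325 in F1 and 216, 264, 197, 204 and 223 in F344. ACI had 229, 241, 242, 229.9 and 179, BUF/N 217, 147, 185, 173 and 162 and WF 332, 261, 264, 157 and 239.7. All Cop arrays lay above all F1, F344, ACI and BUF/N arrays, though Cop 5 (325.3) barely above F1 5 (324.7), and WF 1 lay above Cop 5. Cop minus F344 was 0.85 (SE 0.176, adjusted p = 0.00342), Cop minus ACI 0.83 (adjusted p = 0.00358), Cop minus BUF/N 1.18 (adjusted p = 1.64e-05), Cop minus WF 0.70 (adjusted p = 0.0072) and F1 minus Cop -0.72 (adjusted p = 0.00338). Both probe sets of Gstt2 passed in opposite directions for F1 minus Cop, Cop minus F344 and Cop minus BUF/N, and in the same direction for Cop minus WF. Their signs were equal in 4 of the 15 pairs. No other gene with more than 1 tested probe set had calls in opposite directions. No single level of Gstt2 can therefore be stated for Cop, and the part of sequence differences between strains under the probes was not tested.

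Mgst1 had signals between 5030 and 8549 on J03752_at, and its highest group mean was 1.24 times its lowest. F1 had 6939, 7099, 8014, 7059.8 and 7144, against 6874, 5832, 5736, 5748 and 5162 in ACI. F1 minus ACI was its only pair past the threshold (0.31, SE 0.112, adjusted p = 0.0376). It was -0.25 with quantile normalization, past the threshold in the opposite direction (adjusted p = 0.0448), and 0.21 without the 4 arrays (adjusted p = 0.361). The call also ended without F1 2 (0.0568), F1 3 (0.0956), ACI 2 (0.0653), ACI 3 (0.0608), ACI 4 (0.0627) or ACI 5 (0.0953) and with array weights (0.0736), so that no direction is stated for it. F1 minus the mean of its parents was 0.09 (adjusted p = 0.475), and -0.38 with quantile normalization (adjusted p = 0.000667).

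The comparison of Cop with F344 sets a resistant strain beside a susceptible one. It called 5 of the 17 probe sets, against 3.45% of all tested ones, and they belonged to Gstm1, Gstt1 and Gstt2. Higher in Cop were 4 (background 1.69%) and lower was 1, rc_AI138143_at of Gstt2 (background 1.77%). Probe sets of 1 gene are not independent. The median difference was 0.15 over the 17 probe sets and 0.03 over all tested ones. In the pools, each a single array with no test, the Cop pool stood above the F344 pool on X04229cds_s_at (713.4 against 401.8), J02810mRNA_s_at (677.3 against 468), X67654_at (190.9 against 145) and D10026_s_at (375.1 against 165.8), and below it on rc_AI138143_at (174.6 against 537.5). Whether the pools hold RNA of the single samples is not stated. On the 5 called probe sets F1 minus F344 was -0.10 (J02810mRNA_s_at), 0.00 (X04229cds_s_at), 0.35 (X67654_at), 0.13 (D10026_s_at) and 0.07 (rc_AI138143_at). None of these passed by limma (adjusted p = 0.12 or more). On X67654_at BUF/N, also susceptible, averaged 239.8, against 219.2 in Cop. Whether any of the 5 follows resistance was not tested. Of 9 luminal epithelial markers tested, 3 were lower in Cop (Cldn3, Krt19 and Prlr), and the summed signal of the 9 ran from 2694 to 4870 in Cop, against 4999 to 6993 in F344, with Esr1 the marker not tested for low signal. Of 10 adipocyte markers 2 were higher in Cop (Plin1 and Adrb3), with sums of 23300 to 29860 in Cop, against 22400 to 25210 in F344, and Ucp1 not tested for low signal. Of 4 tested mast cell markers 1 was higher in Cop (Tpsab1) and 1 lower (Kit), and of 3 tested liver genes 1 was higher (Alb) and 1 lower (Fgg). Of 8 skeletal muscle genes 0 passed by limma, with a median difference of -1.66. In the basal, macrophage, T cell, red cell, endothelial and milk lists none passed. The part of cell composition in the differences of the transferases was not tested, and in bulk tissue fewer cells of a type and less RNA per cell cannot be told apart.

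**Figure D3:**
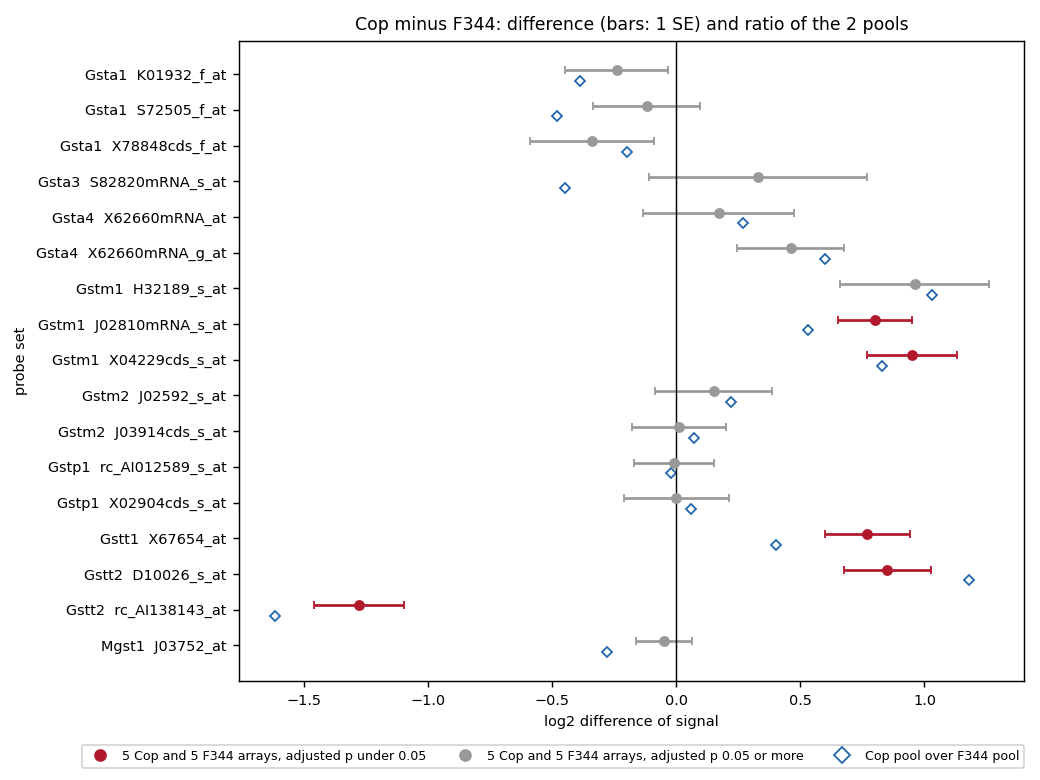
Log2 difference of Cop minus F344 (horizontal axis) for the 17 tested probe sets, as limma estimates with bars of 1 SE (5 arrays each; red, adjusted p under 0.05) and as the log2 ratio of the Cop pool over the F344 pool (open diamonds, 1 array each). Gstt2 has 1 probe set at 0.85 and 1 at -1.28, and the pool ratios of the 5 red probe sets have the sign of the estimates.

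The hybrid was set against the mean of its parents to see which genes lay off it. Of the 17 probe sets 9 passed, 8 lower in F1 and 1 higher, against 35.2% of all tested probe sets in either direction, 17.8% lower and 17.4% higher. The 8 were the 3 of Gsta1, the tested one of Gsta3, X62660mRNA_g_at of Gsta4 and the 3 of Gstm1. Their largest difference was -1.73 for S72505_f_at (SE 0.188, adjusted p = 2.34e-07). The probe set that was higher was rc_AI138143_at of Gstt2 (0.72, SE 0.156, adjusted p = 0.000829), where F1 minus F344 did not pass. Lower than both parents at once were 4 probe sets, S72505_f_at and K01932_f_at of Gsta1, S82820mRNA_s_at of Gsta3 and H32189_s_at of Gstm1, against 9.39% of all tested probe sets, and 0 were higher than both by limma, also at an unadjusted p under 0.05 (background 9.31%). Of these, the 2 of Gsta1 alone passed against both parents without F1 2 (background 6.31%), without F1 3 (background 6.35%) and without the 4 arrays that stood apart (background 6.22%). The median difference was -0.47 over the 17 probe sets and 0.02 over all.

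The count depended on the F1 arrays that stood apart. It was 6 when either F1 2 or F1 3 was left out. With the 4 arrays that stood apart left out it was 5, of which 4 were lower, against 24.7% of the 4900 probe sets then tested. The 5 were S72505_f_at (-1.98, adjusted p = 1.75e-06), K01932_f_at (-1.37, adjusted p = 0.000129), H32189_s_at (-0.70, adjusted p = 0.017), J02810mRNA_s_at (-0.54, adjusted p = 0.0131) and rc_AI138143_at (0.58, adjusted p = 0.0117). No longer past the threshold were X78848cds_f_at (-0.27, adjusted p = 0.357), S82820mRNA_s_at (-0.51, adjusted p = 0.346), X62660mRNA_g_at (-0.20, adjusted p = 0.509) and X04229cds_s_at (-0.39, adjusted p = 0.0728). Without F1 2 or F1 3 alone, X78848cds_f_at had adjusted p = 0.07 and 0.0769, X62660mRNA_g_at 0.171 and 0.145, and X04229cds_s_at 0.0607 and 0.0515. X62660mRNA_g_at also missed the threshold without Cop 1, Cop 3, Cop 5, F344 1, F344 3, F344 4 or F344 5 (adjusted p = 0.0519 to 0.0745), and with no filter (0.0712), quantile normalization (0.078), centring on the median (0.101) or array weights (0.158). X04229cds_s_at missed it with centring on the median (0.0782).

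Markers of several cell types differed between F1 and its parents as well, against backgrounds of 17.4% higher and 17.8% lower in F1. All 5 milk protein genes were higher in F1, with summed signals of 17070 to 35510 in F1, against 4506 to 10970 in Cop and 6834 to 10050 in F344. Of 9 luminal markers 6 were higher, with sums of 5368 to 8546 in F1, against 2694 to 4870 in Cop and 4999 to 6993 in F344, and of 7 basal and smooth muscle markers 6 were higher, with 9613 to 12870 in F1, against 4847 to 7742 in Cop and 6144 to 7510 in F344. Of 8 skeletal muscle genes 7 were lower, with 218.4 to 3033 in F1, against 470.5 to 19630 in Cop and 4467 to 22820 in F344. Of 10 adipocyte genes 5 were lower and 1 higher, with 22370 to 25040 in F1, against 23300 to 29860 in Cop and 22400 to 25210 in F344. Both tested endothelial markers, Kdr (-1.12, adjusted p = 0.000202) and Pecam1 (-0.36, adjusted p = 0.0294), were lower, with sums of 225.1 to 377.5 in F1, against 333.2 to 544.4 in Cop and 404.2 to 495.6 in F344, and Vwf was not tested for low signal. Without the 4 arrays 5 of 5 milk genes, 8 luminal markers, 5 basal markers and 1 adipocyte gene were higher. In that fit 4 muscle, 4 adipocyte and 1 endothelial genes were lower, and 24.7% of the 4900 probe sets tested passed in either direction. The part of these cell types in the F1 differences of the transferases was not tested.

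**Figure D4:**
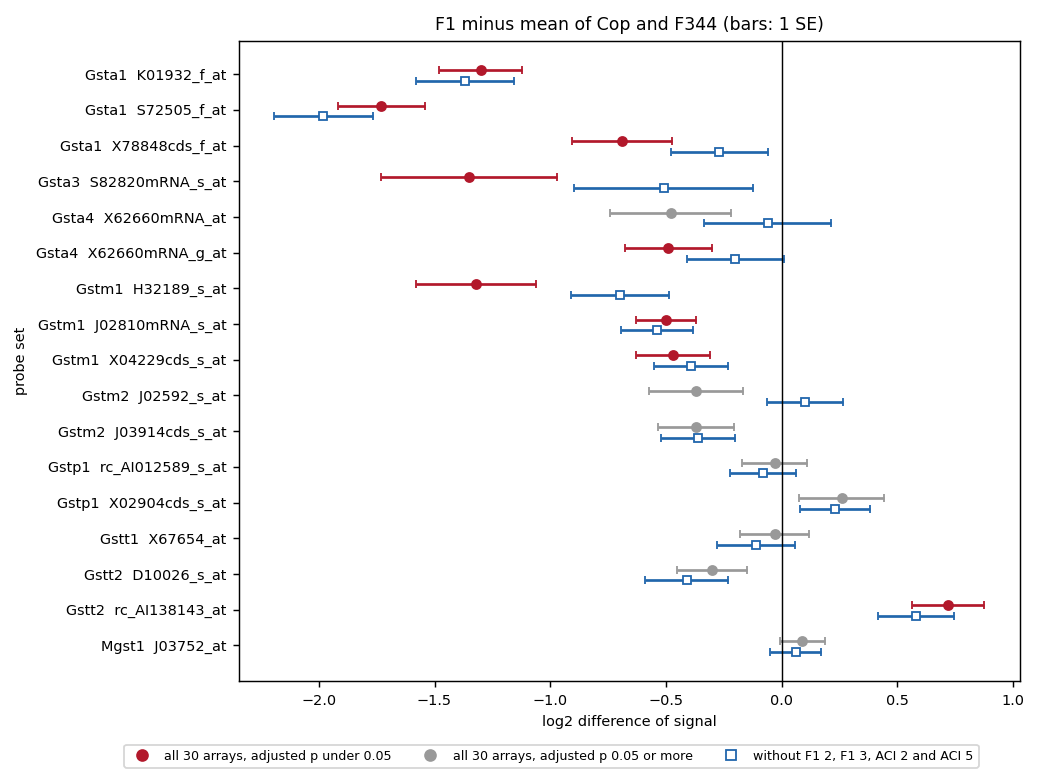
Log2 difference of F1 minus the mean of Cop and F344 (horizontal axis) for the 17 tested probe sets, with bars of 1 SE; filled circles use all 30 arrays (red, adjusted p under 0.05) and open squares leave out F1 2, F1 3, ACI 2 and ACI 5. S72505_f_at and K01932_f_at of Gsta1 stay at or below -1.30 in both fits, and S82820mRNA_s_at of Gsta3 has -1.35 with all arrays and -0.51 without the 4.

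Other genes of glutathione metabolism were followed as lists with 1 probe set per gene. The backgrounds for their counts are 51.8% of all tested probe sets for the F test, 17.8% lower and 17.4% higher for F1 against the mean of its parents, and 1.77% lower and 1.69% higher for Cop minus F344. For F1 without the 4 arrays it is 24.7% of 4900 probe sets in either direction. Of 7 other tested transferase genes 3 passed the F test, and 3 were lower and 1 higher in F1 than in the mean of its parents (2 and 1 without the 4 arrays). Gstm5, a mu class gene, averaged 179.3 ± 41.75 in F1, against 322.7 ± 59.4 in Cop and 320 ± 29.62 in F344 (SD, n = 5 each), a difference of -0.86 (SE 0.198, adjusted p = 0.00148). Gsto1, an omega class gene, differed by -0.49 (adjusted p = 0.00826), and by -0.32 without the 4 arrays (adjusted p = 0.0412), and missed the threshold without F1 2 (0.056) and with centring on the median (0.0587). Hpgds, the prostaglandin D synthase of the sigma class, differed by 0.82 (adjusted p = 0.0167), and by 0.53 without the 4 arrays (adjusted p = 0.16), and missed the threshold without F1 2 (0.101). Between Cop and F344 0 of the 7 passed by limma, and 1 at an unadjusted p under 0.05. Gsto1 had -0.55 there (adjusted p = 0.0608) and passed without the 4 arrays (adjusted p = 0.00237).

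Of 16 tested genes of glutathione synthesis, recycling and peroxidases 8 passed the F test. In F1 against the mean of its parents 6 were lower and 1 higher, and without the 4 arrays 2 were lower and 0 higher by limma. Prdx6, a peroxidase that uses glutathione, was lower in F1, with a log2 difference of -0.46 (adjusted p = 0.00235). Gpx2, a glutathione peroxidase of epithelia, did not pass (0.67, adjusted p = 0.114). Anpep, an aminopeptidase that takes part in glutathione breakdown outside the cell, was the single gene of the list past the threshold between Cop and F344 (-0.70, SE 0.158, adjusted p = 0.00757). Gclc, which encodes the catalytic subunit of the first enzyme of glutathione synthesis, was not tested for low signal.

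Of 13 tested Nrf2 targets outside these lists 10 passed the F test, 6 were lower and 0 higher in F1 than in the mean of its parents (6 and 0 without the 4 arrays), and 3 were lower and 0 higher in Cop than in F344. Ephx1, the microsomal epoxide hydrolase, averaged 274.5 ± 132.6 in F1, against 759.4 ± 114.6 in Cop and 822.7 ± 43.09 in F344 (SD, n = 5 each), a difference of -1.64 (SE 0.207, adjusted p = 1.8e-06). Me1, the cytosolic malic enzyme, differed by -1.98 in F1 (adjusted p = 2.49e-05) and by -1.46 in Cop against F344 (adjusted p = 0.0152), and the call between Cop and F344 ended without Cop 2 (0.058) or F344 5 (0.0751). Cbr1, a carbonyl reductase, differed by -3.02 in Cop against F344 (adjusted p = 6.42e-08) and by -0.86 in F1 against the mean of its parents (adjusted p = 0.0148), the F1 value being -0.44 without the 4 arrays (adjusted p = 0.241) and missing the threshold without F1 2 (0.104). Its F1 mean of 386.8 lay between those of its parents, 221.5 in Cop and 1793 in F344. Nqo1, a quinone reductase named after its values were seen, differed by -1.69 in F1 (adjusted p = 8.57e-05), and by -1.10 without the 4 arrays (adjusted p = 0.0112). The median F1 difference of the 13 genes was -0.32, against 0.02 over all tested probe sets.

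For 3 members the probe sets of other genes with the most similar profile over the 30 log2 signals were sought, as a description in which points of a group share their strain. The pattern of Gstt2 on rc_AI138143_at was most like that of Spock2 (r = 0.78), Il6st (0.759) and Grifin (0.741). Spock2, a proteoglycan gene, averaged 68.38 in F1, 10.96 in Cop (below the floor), 112.4 in F344, 23.82 in ACI, 97.2 in BUF/N and 22.18 in WF. Gsta1 on S72505_f_at was most like Star, which moves cholesterol into mitochondria (r = 0.858), Nat1, an arylamine N-acetyltransferase (0.854), and the mitochondrial dicarboxylate carrier Slc25a10 (0.836). Nat1 averaged 90.44 ± 23.15 in F1, against 284.7 ± 66.96 in Cop and 229.9 ± 41.86 in F344 (SD, n = 5 each). Gsta4 on X62660mRNA_g_at was most like the angiotensin receptor gene Agtr1a (r = 0.729), the myosin light chain gene Myl9 (0.724) and the potassium channel gene Kcnj8 (0.709).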

How the data were processed

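RNA of normal mammary gland was measured on 32 Affymetrix rat arrays, 30 single samples in 6 groups of 5 and 2 pools, grouped by the sample titles. The deposited values are linear signals that the authors computed with Microarray Suite 5.0, per the labels. The mean signal after trimming 2% at each end was 250.3 to 250.4 on all 32 arrays, so that each array had been scaled to a common target. The number of arrays sets the precision. The floor was the 25th percentile (18.3), applied ahead of the log2 step, and the 59 control probe sets were left out. A model of 6 group means (limma 3.58.1, R 4.3.3, trended variance, 29.58 degrees of freedom) used the 30 arrays and 5039 probe sets at once, and p-values were adjusted by Benjamini-Hochberg within each contrast at 0.05. The fit was tested on simulated data. Symbols came from the array's annotation table, with 7018 probe sets having 1 symbol, 308 several and 1473 none, and 6994 were matched to the RefSeq gene table (GRCr8) by identifier. Members and lists were chosen with earlier results of these data known. Full values are given for the 8 member probe sets with the smallest adjusted p of the F test, the 3 genes with the smallest F-test p are named in each list, and other members have ranges or tests. Array values of S82820mRNA_s_at, X02904cds_s_at and J03752_at are also given, chosen after their values were seen. The alternatives changed the floor (10th or 40th percentile, or 50 added instead), the filter (none, or 15 arrays), the scaling (quantile or median centring) or the design (replicate block, array weights, Cop with F344 alone), or left arrays out.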

Additional observations from a re-analysis of the deposited data

Results flagged for a closer look

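Within each group of 5 arrays and each tested probe set, the lowest or highest array was compared with its nearest neighbour, and its gap was set against the range of the group on the log2 scale (Dixon's test, critical value 0.71). Of 102 such groups 10 exceeded it, and chance exceeds it in about 1 in 20 groups. ACI 5 stood alone on 4 probe sets, being lowest on X04229cds_s_at of Gstm1 (298.1, the others 551.5 to 651.9), J03914cds_s_at of Gstm2 (417.7, the others 780.2 to 962.8) and D10026_s_at of Gstt2 (178.8, the others 229.2 to 242.1), and highest on rc_AI138143_at of Gstt2 (235.4, the others 132.1 to 150.6). BUF/N 3 was lowest on X04229cds_s_at (342.7, the others 557 to 633.4) and on J02592_s_at of Gstm2 (629.1, the others 920.2 to 1032.5). On X78848cds_f_at of Gsta1 ACI 2 was lowest in its group (376.8, the others 617.9 to 739.3) and so was BUF/N 1 (460.3, the others 630.7 to 711.7). F344 4 was lowest on X04229cds_s_at (361, the others 409.2 to 424.7). F1 3 was highest on J03752_at of Mgst1 (8014.5, the others 6938.6 to 7143.8).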

How the results depend on the processing

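Under the 41 alternatives, 46 of the 82 member differences past the threshold kept their direction and their call wherever they were fitted, 36 lost the call under at least 1, and 1 changed sign (Mgst1 J03752_at, F1 minus ACI, -0.25 with quantile normalization); the causes were not tested. The count of members past the F test was 11 and ran from 10 to 14, that of Cop minus F344 was 5 and ran from 5 to 6, and that over the 15 pairs was 73 and ran from 59 to 87. The count for F1 minus the mean of Cop and F344 was 9 and ran from 5 to 11, with 5 without F1 2, F1 3, ACI 2 and ACI 5. Leaving out 1 array at a time gave 10 to 13 for the F test, 5 to 6 for Cop minus F344, 6 to 11 for F1 minus the mean of its parents and 62 to 85 over the pairs. Arrays with the same replicate number in the titles showed no clear shared effect. Of 75 same-numbered pairs of arrays 16 had correlated deviations above 0.1 (median -0.0158), and 6 of the 30 arrays correlated best with their own number. This cannot exclude that samples were handled in numbered sets. With the numbers as a block the counts were 11, 5, 9 and 73 for the F test, Cop minus F344, F1 minus the mean of its parents and the pairs. The block ended the calls of X04229cds_s_at for Cop minus ACI (adjusted p = 0.0504) and rc_AI138143_at for F1 minus BUF/N (0.061). Centring on the median moved the median of all probe sets by 0.315 for F1 minus ACI and by 0.08 for F1 minus the mean of its parents, and quantile normalization moved that of F1 minus ACI by 0.103. Signals near the floor limit Gsta3.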
